A study of Mus musculus with 30 samples.

Results

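Microglia of adult offspring on control chow were compared between mothers given poly(I:C) and mothers given saline, using 6 of the 30 RNA-seq libraries of the series. The libraries were chosen by their labels alone. The 3 "MIA + CTRL" libraries came from C57BL/6J offspring at postnatal day 60 (P60) whose dams had been injected during pregnancy with poly(I:C), which mimics viral double-stranded RNA at Toll-like receptor 3 and so provokes maternal immune activation (MIA) without a virus. The 3 "Saline + CTRL" libraries came from P60 offspring of the same strain whose dams had been injected with saline. Both groups ate control chow after weaning, so neither had met the CSF1R inhibitor PLX5622, which the microglial repopulation (MG-REP) groups received before a return to control chow. In every group, cells were drawn from dissociated whole brain with magnetic beads against CD11B, a surface integrin of microglia that other macrophages, monocytes and neutrophils also carry, and each P60 library held the cells of 1 brain. The question was which transcripts of resident adult microglia differ by the mother's treatment when the microglia were never depleted.

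Microglia enter the brain in the embryo, renew themselves there, and in the healthy adult express a homeostatic set of receptors such as *P2ry12*, *Cx3cr1* and *Tmem119*. When they sense damage or microbial products, the transcription factor NF-κB enters the nucleus and switches on cytokines and chemokines, and also its own inhibitors, which end the response. A partly overlapping set of immediate early genes, among them *Fos*, *Jun* and the *Egr* family, answers within minutes to many stimuli, including those of tissue dissociation. For this reason both sets are read here with the other cell types and stress genes beside them.

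All values are TPM, a measure of transcript abundance scaled to length and depth, of 14225 transcripts with 13483 gene symbols. Between 8450000 and 11420000 counted reads were estimated for each of the 6 libraries from the step size of the low values, so a single read on a transcript of 1 kb was worth 0.234 to 0.329 TPM. The libraries correlated at r = 0.969 to 0.983 within Saline, 0.978 to 0.993 within MIA and 0.957 to 0.990 between the groups (across transcripts, which are not independent replicates). Library 1 of both groups had *Xist* (124 and 139.9 TPM) and almost no Y-linked transcripts, and libraries 2 and 3 of both had the converse, so sex was balanced. The labels give neither sex, litter nor batch, and p-values therefore measure the spread between libraries only. In the limma fit below, that spread was shared by all 10 groups of the series and was not estimated from these 6 brains alone. Markers of microglia made up 97.7% ± 1.68 (SD, n = 3) of the marker TPM of 5 brain cell types in Saline and 97.2% ± 1.85 in MIA (exact permutation test, two-sided, p = 0.6, where 3 against 3 allow none below 0.1).

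The admixture of other brain cells varied more between brains than between groups. The mean log2(TPM + 1) of neuron, oligodendrocyte, astrocyte, endothelial and mural cell markers, called the other-cell score here, was 5.27, 5.66 and 4.57 in Saline libraries 1, 2 and 3 and 5.95, 5.24 and 5.05 in MIA libraries 1, 2 and 3. MIA library 1 was thus the highest and Saline library 3 the lowest of the 6. Differences in the gene groups below that move with these libraries are given with and without them. Leaving out both turns the order of the scores, to 5.27 and 5.66 in Saline against 5.24 and 5.05 in MIA. A group that follows the score can change direction for that reason alone, so this setting does not correct for the score. It also leaves a library with *Xist* in Saline only. In such bulk samples, fewer cells of a type and less RNA per cell cannot be told apart.

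No transcript differed between MIA and Saline after adjustment. In a limma fit of log2(TPM + 1) over all 30 libraries, 0 of 14225 transcripts (0%) had a Benjamini-Hochberg adjusted p under 0.05, and the smallest adjusted p was 1. At an unadjusted p under 0.05 there were 125 higher transcripts (0.879%) and 131 lower ones (0.921%), together 1.8% of those tested. That is below the 5% that this threshold passes where nothing differs. The smallest unadjusted p was 0.000174, for *Phactr3* (NM_001007154), picked out after its values were seen, with 0.450, 0.830 and 0.260 TPM in Saline and 1.70, 1.20 and 1.01 TPM in MIA, which are a few reads. Differences were small. The median log2 fold change was 0.03, the range from the lower to the upper 5% of transcripts was −0.28 to 0.49, and 18 transcripts exceeded 1 in size, 12 of them among the 9494 with a mean of at least 5 TPM. The median standard error of that set of 9494 was 0.187. The groups did not overlap for 368 transcripts in the higher direction (2.59%) and 475 in the lower one (3.34%), and these shares are the background for the counts that follow. Each is below the 5% that 3 against 3 libraries would give where nothing differs. For a single gene, either criterion therefore describes its values only.

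**Figure D1:**
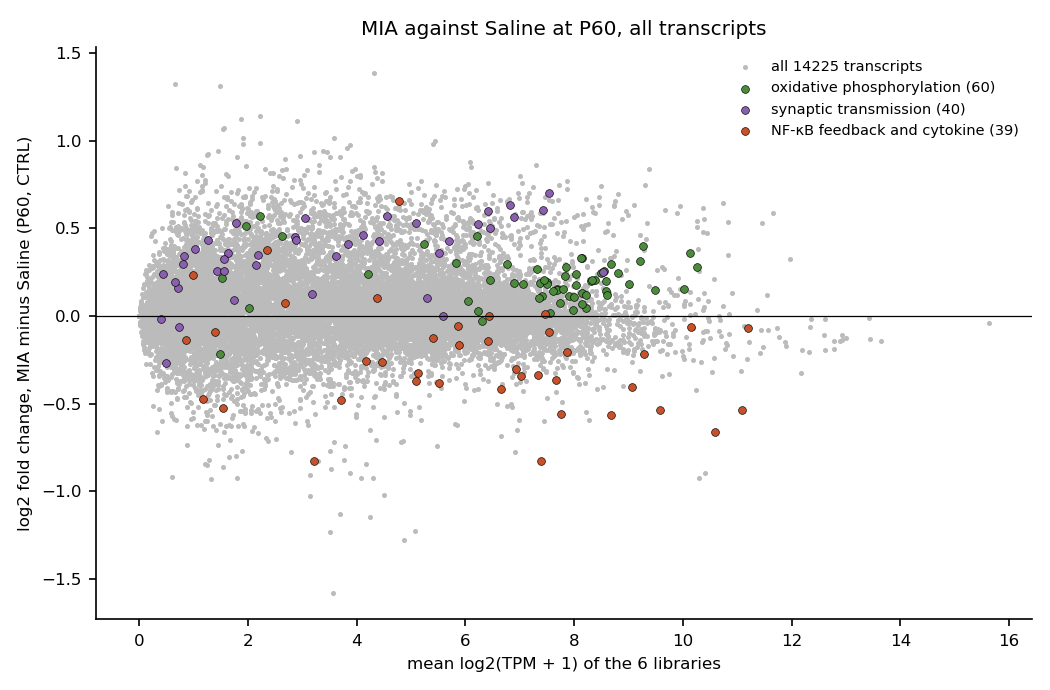
Each point is 1 transcript, with its mean log2(TPM + 1) over the 6 libraries on the x axis and its log2 fold change, MIA minus Saline, on the y axis. The 39 NF-κB and cytokine genes (orange) lie mostly below 0 with a median of −0.26, and the 60 oxidative phosphorylation genes (green) and 40 synaptic genes (purple) mostly above it with medians of 0.19 and 0.36.

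The gene group lowest in MIA was that of NF-κB feedback and cytokine genes. Of its 43 genes, 39 had a value, 33 of them (84.6%) with a negative log2 fold change against 43.5% of all transcripts, and the median was −0.26 against 0.03. At an unadjusted p under 0.05, 5 were lower (12.8%, background 0.921%) and 0 higher, and none passed the adjusted threshold. The summed TPM of the 39 genes was 13142, 14196 and 13080 in Saline and 11189, 11311 and 9544 in MIA, and the mean log2(TPM + 1) was 6.11 to 6.16 in Saline and 5.81 to 6.00 in MIA, so the groups did not overlap on either scale. The median lay between −0.34 and −0.13 in every alternative. It was −0.22 with the other-cell score as a covariate, and −0.26 without MIA library 1 and Saline library 3, where 26 of 39 were negative. The number lower at an unadjusted p under 0.05 depended on single brains, with 0 without MIA library 3, 1 without Saline library 1 and 2 without Saline library 2.

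Chemokines led this group. *Ccl2* (NM_011333, chr11:82035577-82037452 of GRCm38.p6), the ligand that draws CCR2-bearing monocytes, had 269, 222 and 186 TPM in Saline and 157, 145 and 86.1 TPM in MIA. The lowest Saline brain stood above the highest MIA brain. The log2 fold change was −0.83 (SE 0.293, unadjusted p = 0.00919, adjusted p = 1, limma) and ran from −1.12 to −0.56 over 18 alternatives, with an unadjusted p under 0.05 in 17 of them. *Ccl8* (chr11:82115185-82116799), another monocyte chemokine, had 16.3, 7.0 and 12.8 TPM in Saline and 5.15, 6.52 and 6.40 TPM in MIA, a log2 fold change of −0.83 (SE 0.372, unadjusted p = 0.0357), on an estimated 8 to 28 reads a library. These groups did not overlap either, although the margin was narrow. *Ccl12* had 269, 252 and 270 TPM in Saline and 170, 205 and 162 TPM in MIA, also without overlap (log2 fold change −0.56, SE 0.387, unadjusted p = 0.160).

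*Ccl3*, an inflammatory chemokine, had 2251, 2212 and 1457 TPM in Saline and 1889, 1096 and 885 TPM in MIA, with overlap between the groups. Its log2 fold change was −0.66 (SE 0.311, unadjusted p = 0.0442), and that of its neighbour *Ccl4* was −0.54 (SE 0.264, unadjusted p = 0.0527). The reference places *Ccl3* at chr11:83647843-83649378 and *Ccl4* at chr11:83648624-83664683, so that their spans overlap, and since the libraries were not stranded their shared reads cannot be assigned with certainty. Chemokines did not all share this direction. *Cxcl1*, a neutrophil attractant, had 23.8, 19.1 and 20.2 TPM in Saline and 20.8, 38.9 and 46.5 TPM in MIA, a log2 fold change of 0.65 (SE 0.337, unadjusted p = 0.0643). MIA library 1 lay within the Saline range and the other MIA brains above it. Among 18 alternatives, the unadjusted p stayed under 0.05 in 10 for *Ccl3* and for *Ccl8*.

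Among the genes that restrain NF-κB, *Nfkbid* (NM_172142), which encodes a nuclear IκB protein, had 554, 550 and 408 TPM in Saline and 414, 364 and 255 TPM in MIA. The groups overlapped by 1 brain on each side, and the log2 fold change was −0.56 (SE 0.223, unadjusted p = 0.0185). *Ier3* (NM_133662), an immediate early gene that NF-κB induces and that belongs to both lists here, had 990, 1051 and 739 TPM against 803, 632 and 496 TPM (log2 fold change −0.54, SE 0.226, unadjusted p = 0.0262). In both genes library 3 was the lowest of its group, and the unadjusted p stayed under 0.05 in 14 of 18 alternatives. *Nfkbie*, another IκB gene, was low in all brains, with 1.34, 1.35 and 2.39 TPM in Saline and 0.940, 1.03 and 0.770 TPM in MIA. *Nfkbia*, the abundant member of the family, had a log2 fold change of −0.07 (SE 0.176, unadjusted p = 0.695).

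The remaining members without overlap were *Il1a*, *Bcl2a1b* and *Bcl2a1d*. *Il1a*, the alarmin interleukin-1α, had 524, 680 and 657 TPM in Saline and 513, 506 and 386 TPM in MIA (log2 fold change −0.41, SE 0.230, unadjusted p = 0.0903). *Bcl2a1b*, a survival gene of the Bcl2 family, had 219, 230 and 237 TPM in Saline and 158, 197 and 178 TPM in MIA, a log2 fold change of −0.36 (SE 0.195). *Bcl2a1d* is a near-identical copy of it, so the division of reads between them is uncertain. *Tnf* and *Il1b*, whose log2 fold changes were −0.48 (SE 0.363) and −0.21 (SE 0.324), overlapped between the groups. In all, 7 of 39 members (17.9%) were lower without overlap, against 3.34% of all transcripts, and 0 were higher.

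Promoters were read from RefSeq (GRCm38.p6, 250 bases before to 50 after each start). This was done for every gene group with a share of unadjusted calls above that of all transcripts. Only this group and the immediate early genes are shown. The windows shown have the match in capitals, 3 of an NF-κB site and 1 of a CRE (TGACGTCA), the site bound by CREB. The first 3 windows are from *Nfkbid*, at chr7:30422170-30422199, chr7:30422215-30422244 and chr7:30422344-30422373 on the plus strand, and the fourth is from *Ier3* at chr17:35821611-35821640 on the plus strand.
Nfkbid NF-κB site, 226 bases before the start: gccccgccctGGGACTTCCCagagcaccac
Nfkbid NF-κB site, 181 bases before the start: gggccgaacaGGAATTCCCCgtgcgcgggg
Nfkbid CRE, 51 bases before the start: cgttagcgccgTGACGTCAgcgcgcggcgt
Ier3 NF-κB site, 92 bases before the start: tgcgaagggcGGAGTTCCCCccggcccggc
Both strands were searched. Of the 31 NF-κB and cytokine genes with a promoter in the reference table, 14 (45.2%) held an NF-κB site, against 12.7% of the 10158 table genes with a promoter. The list was drawn up from known NF-κB targets, so this share describes how it was made. *Ccl2* and *Ccl4* had no promoter entry.

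The immediate early genes were the second group that was mostly lower. Of 50 genes, 47 had a value, 35 of them negative, with a median log2 fold change of −0.19. At an unadjusted p under 0.05, 7 (14.9%) were lower and 1 (2.13%) was higher, against 0.921% and 0.879% of all transcripts. The best known members were not among them. *Fos* had 5264, 5378 and 8694 TPM in Saline and 3742, 8043 and 7879 TPM in MIA, and *Jun* had 6146, 5255 and 8369 TPM against 3812, 7491 and 7517 TPM. MIA library 1 was the lowest of the 6 in both genes and Saline library 3 the highest, and their log2 fold changes were −0.02 (SE 0.257) and −0.11 (SE 0.265). The median of the list was −0.06 without MIA library 1 and −0.03 without MIA library 1 and Saline library 3.

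A subset of members stood apart from that order. *Cited2* (chr10:17723228-17725674), a transcriptional coregulator that competes for CBP/p300, had 252, 271 and 250.3 TPM in Saline and 169, 199 and 183 TPM in MIA. The log2 fold change was −0.49 (SE 0.186, unadjusted p = 0.0142). *Trib1* (chr15:59648654-59657099), a pseudokinase that targets C/EBPα for degradation, had 84.6, 72.4 and 64.1 TPM in Saline and 60.01, 56.4 and 48.8 TPM in MIA (log2 fold change −0.41, SE 0.165, unadjusted p = 0.0208). *Egr2* (chr10:67534469-67542188), a zinc finger factor of macrophage activation, had 143, 174 and 147 TPM in Saline and 112, 121 and 77.6 TPM in MIA (log2 fold change −0.60, SE 0.262, unadjusted p = 0.0321). In all 3 genes every Saline brain was above every MIA brain.

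*Ier2* had 1306, 1512 and 1396 TPM in Saline and 1066, 1109 and 966 TPM in MIA, a log2 fold change of −0.42 (SE 0.196, unadjusted p = 0.0407). *Sertad1*, a transcriptional cofactor of E2F, had 122, 127 and 137 TPM in Saline and 76.6, 98.9 and 95.4 TPM in MIA, a log2 fold change of −0.51 (SE 0.247, unadjusted p = 0.0484). Neither gene overlapped between the groups. *Irf2bpl* did overlap, with 159.8, 161 and 102 TPM in Saline and 134.9, 98.6 and 87.5 TPM in MIA (log2 fold change −0.39, SE 0.172, unadjusted p = 0.0330). *Egr4* (chr6:85511121-85513589), of the same family as *Egr2*, was the single member higher at an unadjusted p under 0.05, although 12 of the 47 were positive. It had 2.13, 3.54 and 1.62 TPM in Saline and 5.95, 7.01 and 4.23 TPM in MIA, a log2 fold change of 0.99 (SE 0.348, unadjusted p = 0.00912), without overlap but on an estimated 14 to 54 reads a library. Among 18 alternatives, the unadjusted p stayed under 0.05 in 7 for *Sertad1*, 9 for *Ier2*, 12 for *Irf2bpl*, 14 for *Cited2* and *Trib1*, 15 for *Egr2* and 16 for *Egr4*. With these members, 8 of 47 (17%) were lower without overlap and 1 (2.13%) was higher.

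From this group 2 windows are shown, with the CArG box bound by serum response factor in *Egr2* (chr10:67537787-67537816, plus strand) and the CRE in *Irf2bpl* (chr12:86884826-86884855, minus strand) in capitals.
Egr2 CArG box, 72 bases before the start: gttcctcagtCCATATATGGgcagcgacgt
Irf2bpl CRE, 30 bases before the start: gagcatggcggTGACGTCAgcgctccgccc
A CRE was found in 7 of the 41 immediate early genes with a promoter entry (17.1%) against 3.31% of the table genes, and a CArG box in 4 (9.76%) against 1.56%. An E-box (CACGTG) was found in 11 (26.8%) against 11.1%, and an NF-κB site in 9 (22%) against 12.7%. Both *Egr2*, which was lower, and *Egr4*, which was higher, held an NF-κB match. *Trib1* and *Ier2* had no promoter entry. A match gives the letters only and is neither a bound site nor a cause.

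**Figure D2:**
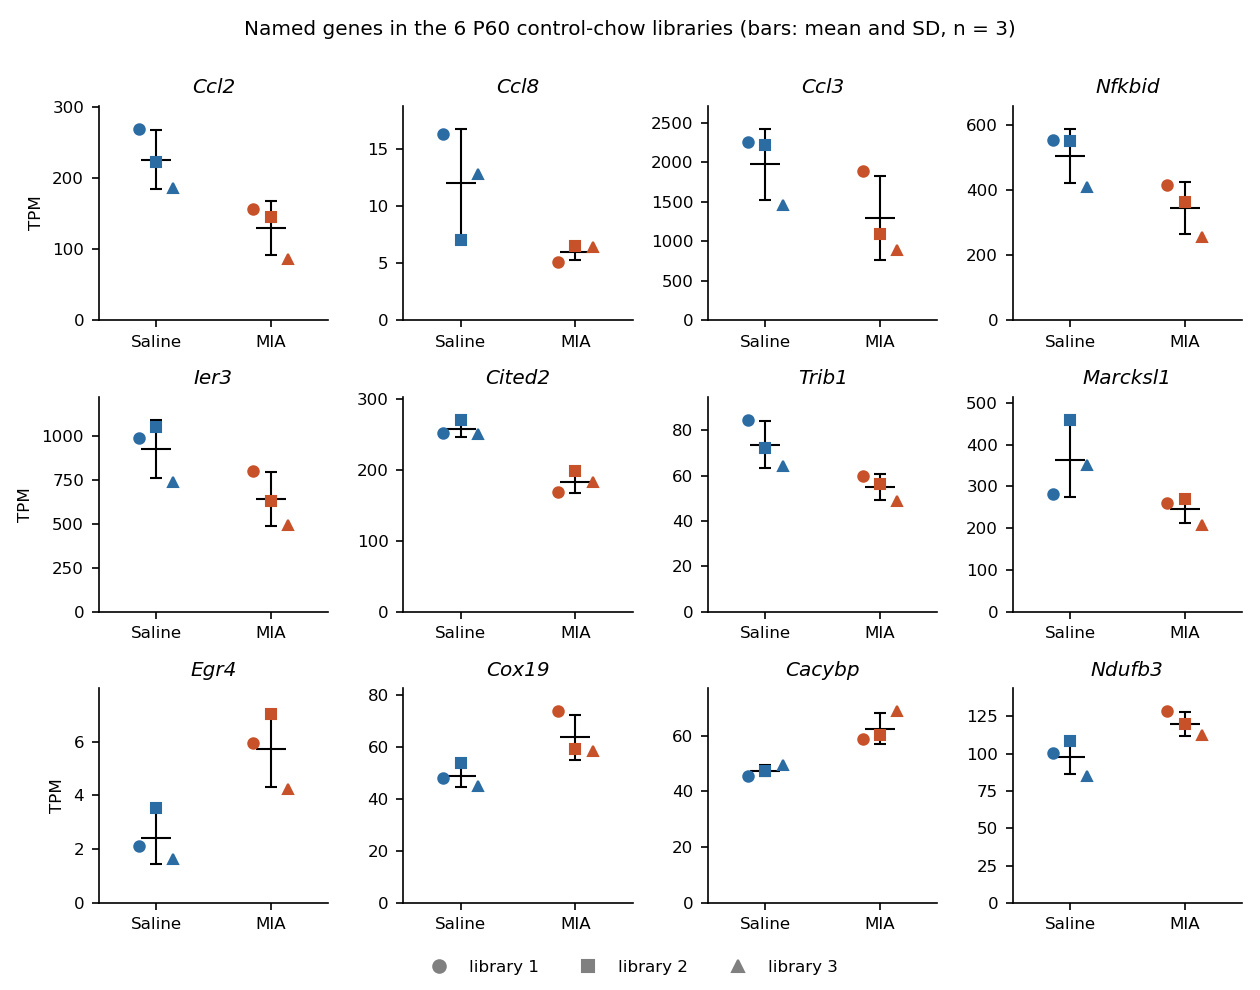
TPM of 12 genes in the 3 Saline (blue) and 3 MIA (orange) libraries, with symbols for library number and bars for the mean and SD (n = 3). Every MIA brain lies below every Saline brain for Ccl2, Ccl8, Cited2, Trib1 and Marcksl1 and above it for Egr4, Cox19, Cacybp and Ndufb3, while Ccl3, Nfkbid and Ier3 overlap.

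The remaining transcripts that were lower in MIA were named by a rule that takes the 10 smallest unadjusted p-values among transcripts without overlap and with at least 5 TPM in the higher group, so their separation follows from the rule. *Tspan4* (NM_001252588, chr7:141475236-141493427), a tetraspanin of the cell membrane, had 15.03, 9.89 and 11.5 TPM in Saline and 5.53, 6.38 and 7.15 TPM in MIA, a log2 fold change of −0.83 (SE 0.219, unadjusted p = 0.000967). *Tgif1* (chr17:70844205-70853532), a homeodomain repressor that limits TGF-β signaling, had 19.4, 18.9 and 19.1 TPM in Saline and 12.04, 8.56 and 9.10 TPM in MIA for the transcript NM_001164075 (log2 fold change −0.90, SE 0.244, unadjusted p = 0.00122). For both, the unadjusted p stayed under 0.05 in all 18 alternatives. Of the 5 *Tgif1* transcripts in the table, NM_001164076, NM_001164077 and NM_009372 were also lower without overlap, with log2 fold changes of −0.41, −0.41 and −0.36, and NM_001164074, near 1 TPM, was not (0.14). The most abundant was NM_009372, with means of 58.0 TPM in Saline and 44.9 TPM in MIA (unadjusted p = 0.126, limma). The second *Tspan4* transcript, NM_053082, overlapped between the groups (log2 fold change −0.38, SE 0.269), at means of 2.09 TPM in Saline and 1.29 TPM in MIA. Transcripts of 1 gene share reads and are not independent.

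*Marcksl1* (chr4:129513581-129515981), an actin-regulating membrane protein, had 283, 459 and 351 TPM in Saline and 259.9, 269 and 208 TPM in MIA, a log2 fold change of −0.55 (SE 0.163, unadjusted p = 0.00271). Saline library 1 and MIA library 2 were the closest brains of the groups. *Prkab1*, the β1 regulatory subunit of the energy sensor AMPK, had 221, 189.8 and 211 TPM in Saline and 167, 180.4 and 168 TPM in MIA (log2 fold change −0.27, SE 0.0984, unadjusted p = 0.0128). *Itpkc*, an inositol trisphosphate kinase, had a log2 fold change of −0.29 (SE 0.108, unadjusted p = 0.0119). *Nme4*, a nucleoside diphosphate kinase of mitochondria, *Lsm5*, part of the U6 snRNA-binding ring, *Serinc4* and *Gm11545* had log2 fold changes between −0.78 and −0.60, all at means under 15 TPM in both groups. For the 10 lower transcripts the unadjusted p stayed under 0.05 in 13 (*Prkab1*) to 18 of 18 alternatives.

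The 10 higher transcripts under the same rule had log2 fold changes from 0.25 to 1.14. *Gm12338* (NR_110477, chr11:75599634-75600231) had the smallest p, with 21.3, 19.7 and 14.1 TPM in Saline and 29.2, 26.5 and 28.7 TPM in MIA (log2 fold change 0.61, SE 0.163, unadjusted p = 0.00106), and kept an unadjusted p under 0.05 in all 18 alternatives. *Cox19* (chr5:139337822-139345166), which carries copper for the assembly of cytochrome c oxidase, had 48.1, 53.9 and 45.0 TPM in Saline and 73.9, 59.1 and 58.7 TPM in MIA (log2 fold change 0.37, SE 0.126, unadjusted p = 0.00716). MIA library 1, with the highest other-cell score, was also the highest for *Cox19*, whose log2 fold change was 0.21 (unadjusted p = 0.177) without it and Saline library 3. *Cacybp* (chr1:160202367-160212892), a calcyclin-binding protein of ubiquitination complexes, had 45.6, 47.5 and 49.5 TPM in Saline and 58.7, 60.3 and 68.8 TPM in MIA, a log2 fold change of 0.39 (SE 0.151, unadjusted p = 0.0172). There the order of the MIA brains was the reverse, with library 1 the lowest.

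*Pam16*, a subunit of the mitochondrial import motor, had 5.39, 5.48 and 6.16 TPM in Saline and 9.53, 8.55 and 11.0 TPM in MIA (log2 fold change 0.68, SE 0.252, unadjusted p = 0.0132), on an estimated 11 to 28 reads a library. *Ndufb3*, an accessory subunit of complex I, had 100.4, 108 and 85.2 TPM in Saline and 128, 119.6 and 112 TPM in MIA (log2 fold change 0.30, SE 0.118, unadjusted p = 0.0189). *Tmem261*, a complex I assembly factor, *Isca1*, which assembles iron-sulfur clusters, and the ribosomal protein gene *Rpl21* had log2 fold changes of 0.27, 0.25 and 0.26. *1190005I06Rik* had the largest log2 fold change of the 10, 1.14 (SE 0.448, unadjusted p = 0.0178), on an estimated 5 to 20 reads. Of these 10, the unadjusted p stayed under 0.05 in 10 of 18 alternatives for *Isca1*, 11 for *Rpl21* and *Tmem261*, and 13 or more for the rest.

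Nuclear genes of oxidative phosphorylation were the group most uniformly higher in MIA, but their level followed the other-cell score. Of 67 genes, 60 had a value and 58 of them (96.7%) were positive, against 56.4% of all transcripts, with a median log2 fold change of 0.19. At an unadjusted p under 0.05, 8 (13.3%) were higher and 0 lower, against 0.879% and 0.921% of all transcripts. These were *Ndufa5*, *Ndufb3* and *Ndufb5* of complex I, *Uqcrh* and *Uqcr10* of complex III, the electron carrier gene *Cycs*, and *Atp5e* and *Atp5l* of ATP synthase. *Atp5e* had 533, 639 and 442 TPM in Saline and 765, 625 and 603 TPM in MIA (log2 fold change 0.31, SE 0.111, unadjusted p = 0.00999). *Ndufa5* had 77.0, 65.6 and 47.4 TPM in Saline and 103, 84.5 and 71.9 TPM in MIA (log2 fold change 0.46, SE 0.189, unadjusted p = 0.0240). Without MIA library 1 and Saline library 3, the log2 fold changes of *Atp5e*, *Ndufa5* and *Ndufb3* were 0.073, 0.13 and 0.15, with unadjusted p-values of 0.510, 0.534 and 0.289. *Atp5e* and *Ndufa5* overlapped between the groups, and *Ndufb3* alone of the 60 (1.67%) was higher without overlap, a share below the 2.59% of all transcripts.

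The mean log2(TPM + 1) of the 60 genes was 7.18, 7.43 and 6.81 in Saline libraries 1, 2 and 3 and 7.58, 7.27 and 7.17 in MIA libraries 1, 2 and 3. MIA library 1 and Saline library 3 were again the ends. Without Saline library 3 the median log2 fold change was 0.02, with 35 of 60 positive, and without MIA library 1 it was 0.05, with 47 positive. Without both it was −0.09, with 12 positive and 48 negative, but there the Saline libraries had the higher scores. Without Saline library 2, which had the second highest score, the median was 0.34 and 37 members had an unadjusted p under 0.05. In that setting 847 of all 14225 transcripts had one, 645 of them higher. With the other-cell score as a covariate the median was 0.14, with 57 of 60 positive, and in a fit of only the compared groups 1 member in place of 8 had an unadjusted p under 0.05. The part of the other cells in this difference was not tested.

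**Figure D3:**
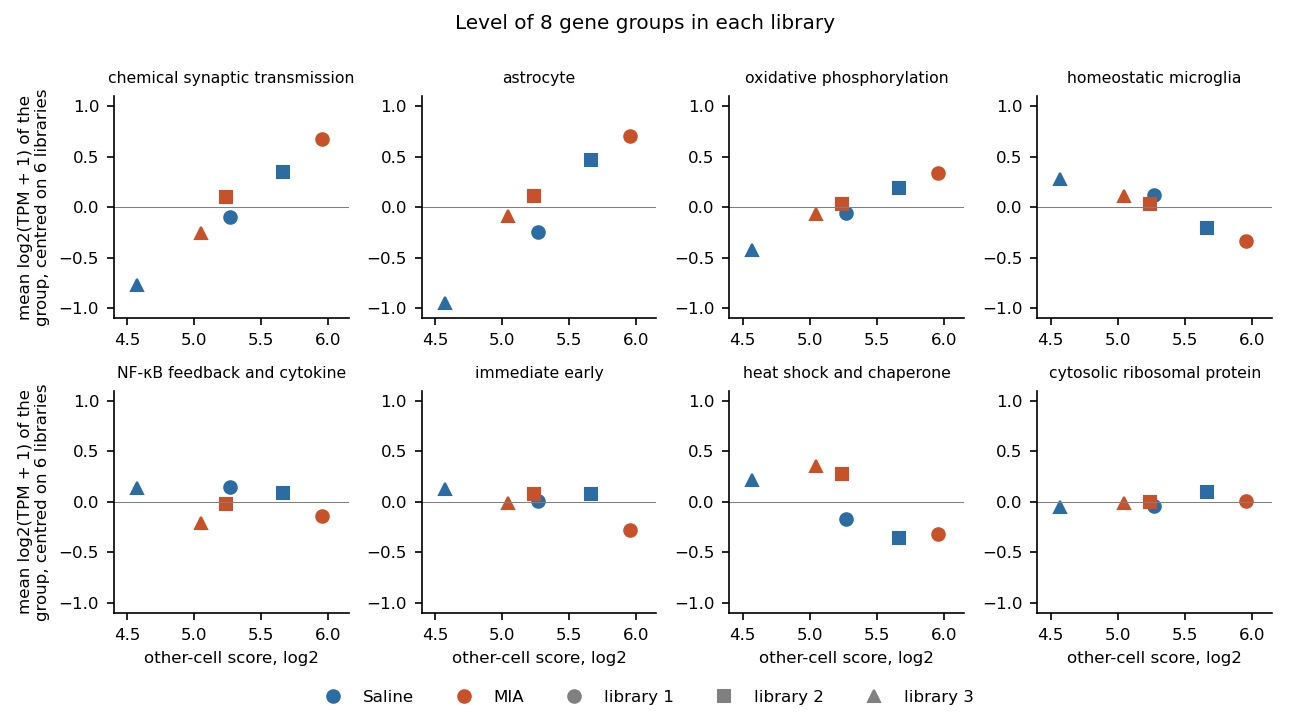
Mean log2(TPM + 1) of 8 gene groups in each of the 6 libraries, centered on their mean, against the other-cell score of the library (Saline blue, MIA orange, symbols for library number). The synaptic, astrocyte and oxidative phosphorylation genes are higher and the homeostatic genes lower in libraries of higher score, whereas the 3 Saline libraries lie above the 3 MIA libraries for the NF-κB and cytokine genes. The astrocyte markers are among those averaged into the score, so their rise with it follows from how it is made.

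Genes of chemical synaptic transmission were ordered by the same score. Of 59 genes, 40 had a value, 37 of them positive, and the median log2 fold change of 0.36 was the highest of the 16 gene groups. None had an unadjusted p under 0.05, and *Shank2*, a postsynaptic scaffold, alone (2.5%) was higher without overlap, at 1.17, 1.38 and 0.730 TPM in Saline and 2.69, 1.40 and 1.47 TPM in MIA. *Camk2a*, the α subunit of a synaptic calcium-dependent kinase, had 143, 228 and 94.6 TPM in Saline and 319, 246 and 169.8 TPM in MIA (log2 fold change 0.70, SE 0.405, unadjusted p = 0.0975), and *Camk2b* had a log2 fold change of 0.19. Without MIA library 1 and Saline library 3 the log2 fold change of *Camk2a* was 0.18, that of *Shank2* 0.099 and the median of the group −0.16. The paper found nearly all genes of its own synaptic transmission list in data of sorted microglia and judged neuronal contamination unlikely. The part of admixed cells in the values here was not tested. Neuron markers had a median of 0.39 (13 of 14 with a value positive) and astrocyte markers of 0.57 (18 of 18), with 0 of either at an unadjusted p under 0.05. Their means were 3.28 to 4.62 (neuron) and 5.35 to 6.76 (astrocyte) in Saline, and 3.91 to 5.06 and 6.20 to 6.99 in MIA, so the groups overlapped. Oligodendrocyte, endothelial and mural markers had medians of 0.13, 0.04 and 0.07. Leaving out 1 library gave endothelial medians from −0.26 to 0.22 and mural ones from −0.26 to 0.26. With the other-cell score as a covariate all 17 endothelial and all 10 mural markers were negative. These markers are themselves part of that score, so their sign there is not independent of it.

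The genes of cellular protrusion and neuritogenesis numbered 40, of which 37 had a value, 29 positive and 7 negative, with a median of 0.18. No member had an unadjusted p under 0.05, and the median was −0.13 without MIA library 1 and Saline library 3. *Ntrk2*, the receptor of BDNF, had 144.6, 311 and 78.8 TPM in Saline and 368, 208 and 183 TPM in MIA (log2 fold change 0.66, SE 0.570, unadjusted p = 0.262). The spread within Saline was larger than the difference between the groups. *Ctnnd2*, *Ncam2* and *Ptn*, a junctional catenin, a neural adhesion molecule and a heparin-binding growth factor, had log2 fold changes of 0.45 (SE 0.533), 0.38 (SE 0.395) and 0.24 (SE 0.506). All 4 turned negative without MIA library 1 and Saline library 3. *Ntn1*, *Wnt5a* and *Cstb* had log2 fold changes of 0.13, −0.04 and 0.06.

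*Plau*, the urokinase-type plasminogen activator, stood apart from them. It had 178, 162 and 135 TPM in Saline and 129, 123 and 113 TPM in MIA, so it was lower without overlap (log2 fold change −0.37, SE 0.264, unadjusted p = 0.173), and it stayed negative in all 18 alternatives. For a gene without overlap, leaving out libraries cannot change the sign.

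**Figure D4:**
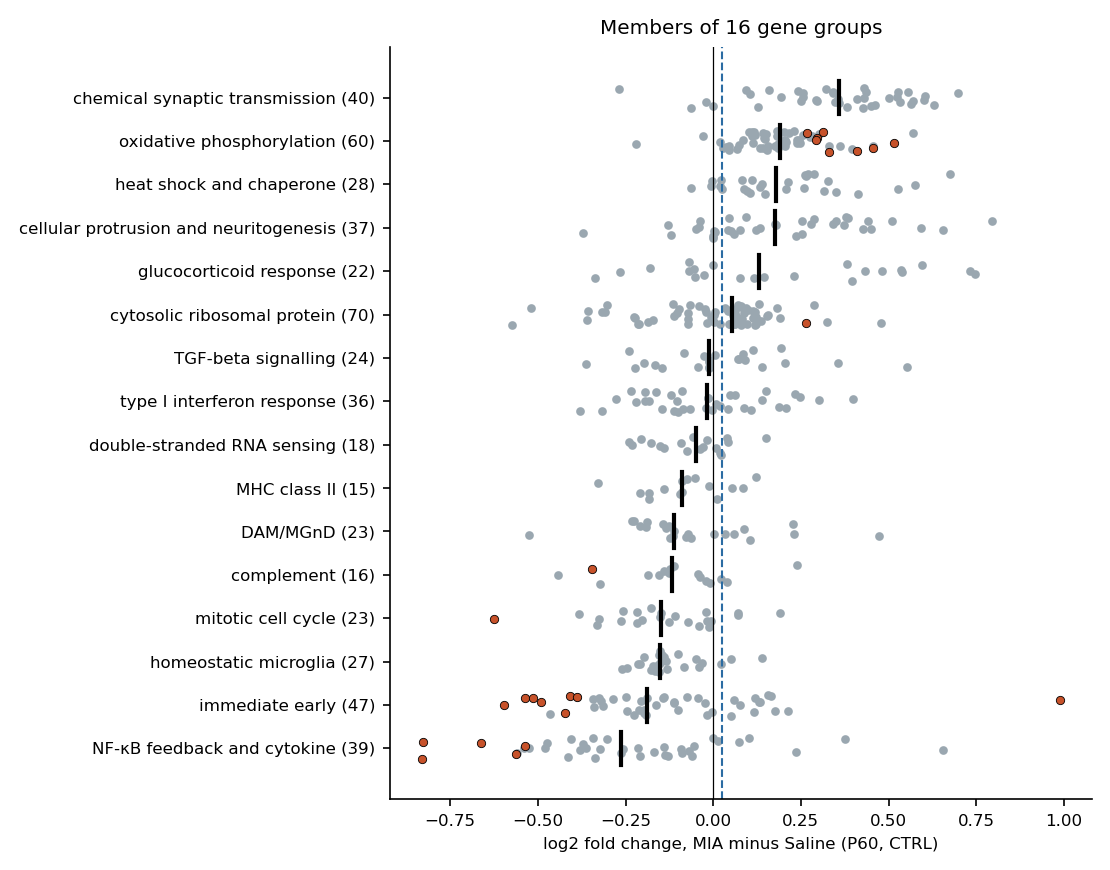
Log2 fold change, MIA minus Saline, of each member of 16 gene groups (number with a value in parentheses), with orange points for an unadjusted p under 0.05, black bars for group medians and a dashed line at the median of all transcripts, 0.03. The orange points lie on the low side for NF-κB and cytokine and immediate early genes, apart from Egr4 at 0.99, and on the high side for oxidative phosphorylation.

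Homeostatic genes were slightly lower in MIA as a group and none stood out. Of 32 genes, 27 had a value, 24 of them negative, with a median log2 fold change of −0.15 and 0 at an unadjusted p under 0.05. *P2ry12*, the purinergic receptor that guides microglial processes, had 3780, 3422 and 4721 TPM in Saline and 2847, 4017 and 3933 TPM in MIA (log2 fold change −0.15, SE 0.235, unadjusted p = 0.538). *Cx3cr1*, the fractalkine receptor, had a log2 fold change of −0.17 (SE 0.189) and *Tmem119*, a surface marker of resident microglia, of −0.21 (SE 0.225). MIA library 1 was the lowest of the 6 for all 3 genes, and Saline library 3 the highest. Without both libraries the median of the group was 0.12, with 24 of 27 positive.

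The DAM/MGnD genes of disease-associated microglia had a median of −0.11 over 23 members, and the complement genes of −0.12 over 16. *C3ar1*, the receptor for the C3a fragment, was the single complement member at an unadjusted p under 0.05 (6.25%), with 288, 263 and 345 TPM in Saline and 217, 240.4 and 243 TPM in MIA (log2 fold change −0.35, SE 0.160, unadjusted p = 0.0410). Its groups did not overlap, but the unadjusted p stayed under 0.05 in 8 of 18 alternatives only, and the log2 fold change was −0.19 (unadjusted p = 0.345) without MIA library 1 and Saline library 3. Antiviral genes had medians near 0. The type I interferon response had a median of −0.02 over 36 members, 15 positive and 21 negative, and the sensors of double-stranded RNA, the class of ligand given to the dams, had a median of −0.05 over 18 members, both with 0 at an unadjusted p under 0.05. Single brains turned the interferon median, which was 0.10 (25 of 36 positive) without Saline library 1, −0.19 (30 negative) without Saline library 2 and −0.14 (29 negative) without MIA library 1. MHC class II genes had a median of −0.09 over 15 members, and of 0.058 without MIA library 1.

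Heat shock and chaperone genes separated the brains in another way. Of 28 members with a value, 25 were positive with a median of 0.18, and 0 had an unadjusted p under 0.05. Those values rested on single brains. The median was 0.34 with 10 of 28 higher at an unadjusted p under 0.05 without MIA library 1, 0.27 with 7 higher without Saline library 3, and 0.055, 0.11 and 0.087 with 0 higher without Saline library 2, MIA library 2 and MIA library 3. Of all 14225 transcripts, 77 were higher at that threshold without MIA library 1 and 88 without Saline library 3. *Hspa1a*, an inducible HSP70 gene, had 307, 229 and 1020.4 TPM in Saline and 182, 1160 and 1126 TPM in MIA, and its near copy *Hspa1b* followed the same order, with uncertain division of reads. *Hsph1* had 72.9, 68.4 and 197 TPM in Saline and 64.0, 252 and 250.6 TPM in MIA. For these genes Saline library 3 and MIA libraries 2 and 3 were thus well above the other 3 brains, and *Fos* and *Jun* were high in the same 3. Within that pattern, *Stip1*, a cochaperone, was higher in every MIA brain (112, 106 and 103 TPM in Saline, 120.2, 118 and 149 TPM in MIA, log2 fold change 0.27, SE 0.176), as was *Dnaja4*, which makes 2 of 28 (7.14%) against 2.59% of all transcripts. The mean log2(TPM + 1) of the NF-κB and cytokine genes was 6.16, 6.11 and 6.16 in Saline libraries 1, 2 and 3. It was 5.88, 6.00 and 5.81 in MIA libraries 1, 2 and 3. The part of tissue dissociation in these levels was not tested.

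Of the other groups, the mitotic cell cycle genes had a median of −0.15 over 23 members, 20 of them negative, and *Plk1*, a mitotic kinase, had 2.96, 2.98 and 2.85 TPM in Saline and 2.67, 0.750 and 1.58 TPM in MIA (log2 fold change −0.62, SE 0.277, unadjusted p = 0.0340, under 0.05 in 11 of 18 alternatives), on an estimated 6 to 26 reads. Cytosolic ribosomal protein genes had a median of 0.05 over 70 members, glucocorticoid response genes of 0.13 over 22 and TGF-β signaling genes of −0.01 over 24. In the last group *Tgif1*, *Ski* and *Nrros* were lower (12.5%) and *Bambi* higher (4.17%) without overlap, against 3.34% and 2.59% of all transcripts.

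Markers of other CD11B-bearing cells were lower in MIA beside the chemokines. All 12 border macrophage markers with a value were negative, with a median of −0.17, a summed TPM of 1416 to 1795 in Saline and 1358 to 1446 in MIA, and 0 at an unadjusted p under 0.05. *Cd209f*, a lectin of border macrophages, had 27.6, 28.3 and 20.6 TPM in Saline and 16.6, 15.5 and 13.3 TPM in MIA (log2 fold change −0.71, SE 0.412, unadjusted p = 0.0992). *Siglec1* (25.5, 14.3 and 14.4 TPM in Saline, 14.2, 12.8 and 12.9 TPM in MIA) was lower without overlap by a narrow margin. With *Cd209f* this makes 2 of 12 (16.7%), against 3.34% of all transcripts. Without Saline library 1 the log2 fold change of *Siglec1* went from −0.37 to −0.10 and the median of the markers to −0.050. The defining markers *Mrc1* and *Pf4* had log2 fold changes of −0.12 (SE 0.223) and −0.11 (SE 0.341), and *Cd163* was under 1 TPM in all brains. Of 20 monocyte and neutrophil markers with a value, 18 were negative with a median of −0.19, and their mean log2(TPM + 1) did not overlap (4.24 to 4.38 in Saline, 4.01 to 4.15 in MIA). *S100a8*, a neutrophil granule gene, had 395, 473 and 426 TPM in Saline and 345, 394 and 311 TPM in MIA. Of the 20 markers, 2 (10%) were lower and 1 (5%) higher without overlap, against 3.34% and 2.59% of all transcripts. Markers of NK and T cells, of B cells, of erythroid cells and of choroid plexus had medians of −0.15 (10 with a value), −0.23 (4), 0.07 (3) and 0.22 (13), with 0 at an unadjusted p under 0.05. The part of these cells in the lower chemokine levels was not tested.

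Each transcript of the table carries the name of 1 of 5 modules, made by clustering all 30 libraries, these 6 included, so the modules are not independent of the values and their shifts are a description. Transcripts of the adult module (AM, 3276) had the highest median log2 fold change, 0.13, with 70.7% positive, 53 higher (1.62%) and 8 lower (0.244%) at an unadjusted p under 0.05. Those of the repopulated adult module (REP-AM, 1134) had a median of −0.03, with 10 higher (0.882%) and 22 lower (1.94%). The immature (IM), MIA immature (MIA-IM) and juvenile (JM) modules had medians of 0.00, 0.05 and −0.01. The synaptic genes *Camk2a* and *Shank2* carry the AM name, and *Ccl2*, *Ccl3*, *Nfkbid* and *Plau* the REP-AM name.

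The MIA difference of these resident microglia was set beside that of repopulated microglia of the same age, and of microglia at P20 and embryonic day 17 (E17), each with its own saline libraries so that no library was shared. In MG-REP, 3124 transcripts (22%) had an adjusted p under 0.05, against 0 here. In the test of the difference between the 2 effects within the same fit, 1496 transcripts (10.5%) had an adjusted p under 0.05, 867 (6.09%) with the more positive effect in CTRL and 629 (4.42%) with the more negative one. All 6 MG-REP libraries had *Xist* and almost no Y-linked transcripts, while 4 of the 6 here were the converse, so sex and chow cannot be told apart in this test. Against P20 and E17, 0 transcripts passed the adjusted threshold of the same test, with 473 (3.33%) and 226 (1.59%) at an unadjusted p under 0.05. All 6 P20 libraries likewise had *Xist* and almost no Y-linked transcripts, so sex and age cannot be told apart there, and every E17 library had both.

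The median log2 fold change of the NF-κB and cytokine genes was negative in each of the 4 comparisons. It was −0.41 at E17, −0.15 at P20, −0.26 here and −0.87 in MG-REP, where the median of all transcripts was 0.10, −0.05, 0.03 and 0.12. At E17, 34 of 39 were negative (31.8% of all transcripts) and 11 were lower at an unadjusted p under 0.05, against 1.26% of all transcripts, although none passed the adjusted threshold. At P20, 28 were negative (60.4% of all transcripts) and 3 lower at an unadjusted p under 0.05, against 2.09%, with none past the adjusted threshold. In MG-REP, 32 were negative (37.7% of all transcripts) and 19 passed the adjusted threshold as lower, against 11%. All 5 microglia markers were also negative at E17, with a median of −0.31, as were 25 of 27 homeostatic genes, with −0.22. Neuron markers had a median of 0.46 there. At P20 and in MG-REP the microglia markers had positive medians of 0.22 and 0.51. The part of the microglial share in these differences was not tested. *Ccl2* had log2 fold changes of −0.79 (SE 0.293, unadjusted p = 0.0126) at E17, −0.17 at P20, −0.83 here and −1.92 (adjusted p = 3.38e-05) in MG-REP, and its effect here did not differ from that in MG-REP by the test of the difference (1.09, SE 0.414, adjusted p = 0.102). *Trib1* was lower in all 4, by −0.42, −0.38, −0.41 and −0.93.

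For 10 of the 39 members the effect differed between CTRL and MG-REP at an adjusted p under 0.05, against 10.5% of all transcripts. The largest were those of *Il12b*, a subunit of interleukin-12 (5.85), and *Cxcl1*, 0.65 here and −3.85 in MG-REP (difference 4.50, SE 0.477, adjusted p = 6.02e-07). The immediate early genes had a median of 0.00 at E17, −0.02 at P20 and 0.14 in MG-REP, against −0.19 here. Oxidative phosphorylation genes had a median of 0.05 at E17, −0.11 at P20 and −0.27 in MG-REP, where 56 of 60 were negative, against 0.19 here, and the effect differed from that in MG-REP for 18 of 60 at an adjusted p under 0.05, against 10.5% of all transcripts. Homeostatic genes had a median of 0.75 in MG-REP against −0.15 here, and the effect differed for 14 of 27, against the same 10.5%.

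**Figure D5:**
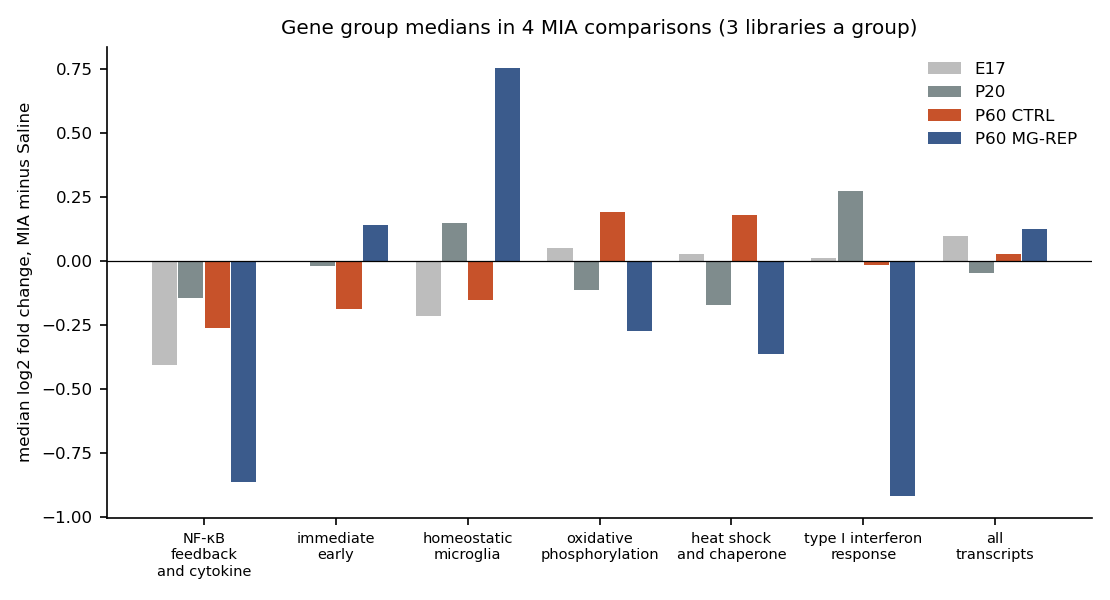
Median log2 fold change, MIA minus Saline, of 6 gene groups and of all transcripts at E17, P20, P60 CTRL and P60 MG-REP (3 libraries a group, bars from 0, no error shown). The NF-κB and cytokine genes are negative in all 4 comparisons (−0.41, −0.15, −0.26 and −0.87), while the homeostatic and oxidative phosphorylation genes differ in sign between CTRL and MG-REP.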

How the data were processed

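RNA of CD11B-selected whole-brain cells was measured in 30 libraries of 10 groups, 3 a group, each grouped by its label. Per the paper's methods, the authors made non-stranded poly(A) libraries, used Rsubread for alignment (mm10) and featureCounts with UCSC gene models for counting, and filtered low genes by CPM. The deposited values are TPM, whose formula is not given in the sources used here. All coordinates come from RefSeq (GRCm38.p6), in which 14124 of 14225 transcripts (99.29%) were found by accession. The transcript lengths behind the read estimates come from GENCODE transcripts matched to RefSeq accessions, and were found for 98.45%.

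In R 4.3.3, limma 3.58.1 was applied to log2(TPM + 1) of all 30 libraries in 1 model of 10 groups without covariates, with a mean-variance trend and no further filter. Tests are two-sided with Benjamini-Hochberg adjustment over all transcripts at 0.05. A fold change on this scale understates the change of low genes. The limma step was tested on simulated data. Differences between the MIA effect here and in MG-REP, P20 or E17 were contrasts in the same fit. Single values per library were compared by exact permutation.

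Members and gene lists were chosen with earlier results of these data known. Named are the 10 higher and 10 lower transcripts of smallest p without overlap, with at least 5 TPM in the higher group and symbols not starting with Mir or Snor, up to 4 members of smallest p per list, genes the study's text names, and sex-linked genes. *Ccl3*, *Ccl4*, *Cxcl1*, *Egr2*, *Ier2*, *Sertad1*, *Irf2bpl* and other members beyond these were picked after their values were seen. Lists are described by counts and medians without a test.

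Alternatives were a pseudocount of 0.1, a mean of at least 1 TPM, median-ratio and quantile scaling, a block on the replicate number, the compared groups alone, *Xist* or the other-cell score as a covariate, no trend, libraries with Y-linked transcripts only, and each library left out. After seeing the data, leaving out MIA library 1 with Saline library 3, and scaling to 5 microglia markers, were added.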

Additional observations from a re-analysis of the deposited data

Results flagged for a closer look

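The MIA difference of CTRL microglia differed from that of MG-REP microglia for 1496 transcripts at an adjusted p under 0.05 in limma, and for 21 of the 54 genes followed through all alternatives. Sex and chow cannot be told apart in this test, as given above.

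Of these genes, the difference (CTRL minus MG-REP, log2) was positive for *Cxcl1* (4.50), *Plk1* (3.55), *Siglec1* (2.21), *Plau* (1.63), *Hspd1* (1.20), *Cacybp* (1.11), *Tmem261* (1.06), *Stip1* (0.92), *Atp5l* (0.84), *Atp5e* (0.76) and *Rpl21* (0.56). Among MG-REP libraries (mean ± SD, n = 3), *Plk1* was at 54.8 ± 34.0 TPM with saline and at 1.76 ± 0.197 TPM with MIA. *Siglec1* was at 191 ± 15.3 TPM and 31.8 ± 8.23 TPM, and *Plau* 909 ± 506 TPM and 206 ± 30.8 TPM.

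It was negative for *Cd209f* (−3.30), *P2ry12* (−2.08), *Tspan4* (−1.91), *P2ry13* (−1.83), *Gm11545* (−1.73), *Cx3cr1* (−1.29), *Tmem119* (−1.20), *Prkab1* (−0.92), *Irf2bpl* (−0.84) and *Itpkc* (−0.63). In MG-REP, *Tspan4* was at 4.17 ± 0.918 TPM with saline and at 9.88 ± 0.705 TPM with MIA, so it was higher under MIA there and lower here. *Prkab1*, with 101 ± 6.66 TPM and 160.2 ± 13.1 TPM, and *Itpkc*, with 33.7 ± 1.54 TPM and 43.1 ± 7.04 TPM, had the same pair of directions.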

How the results depend on the processing

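The number of transcripts with an adjusted p under 0.05 was 0 in every alternative run. Of 125 higher and 131 lower transcripts at an unadjusted p under 0.05, leaving out 1 library gave 77 (without MIA library 1) to 645 (without Saline library 2) higher and 88 (without Saline library 1) to 202 (without Saline library 2) lower. The higher count was 68 in libraries with Y-linked transcripts only. The lower count was 291 without MIA library 1 and Saline library 3. Scaling to 5 microglia markers moved the median of all transcripts to 0.14 and gave 48 higher and 17 lower, so 73.8% of calls were higher against 48.8%. Leaving out 1 library, the difference from MG-REP had 963 (without Saline + MG-REP library 1) to 1631 transcripts in place of 1496, and that from P20 0 to 1. With the other-cell score as a covariate the former was 2047. With a replicate block the higher count was 197. Deviations of libraries of the same number correlated at 0.20, −0.17 and 0.63. So few values do not settle whether the numbers pair the samples. The cause of these changes was not tested.

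Of 971 values for single genes, 956 kept their sign. For the 34 of the 54 genes whose groups did not overlap, leaving out libraries cannot change the sign, so part of this count was fixed beforehand. With the other-cell score as a covariate, *Ptn* was −0.13 and the medians of oligodendrocyte and choroid plexus markers −0.12 and −0.091. The oligodendrocyte markers are themselves part of that score. In libraries with Y-linked transcripts only, *Tmem119* was 0.052, *Ncam2* −0.26, and the medians were 0.027 (homeostatic), 0.020 (DAM/MGnD), 0.038 (complement), 0.043 (microglia markers), −0.25 (oligodendrocyte) and 0.26 (NK and T cell). Without MIA library 1 and Saline library 3, *Tmem119* was 0.12, *P2ry12* 0.14, *Cx3cr1* 0.12, *Ntrk2* −0.12, *Ctnnd2* −0.071, *Ncam2* −0.34 and *Ptn* −0.42, and the medians were 0.12 (homeostatic), 0.068 (DAM/MGnD), 0.0099 (complement), −0.16 (synaptic), −0.13 (protrusion), −0.087 (oxidative phosphorylation), 0.18 (microglia markers), −0.23 (neuron), −0.65 (oligodendrocyte), −0.084 (astrocyte), 0.040 (NK and T cell) and −0.42 (choroid plexus). With scaling to microglia markers, the medians were 0.017 (DAM/MGnD) and 0.014 (complement). Leaving out 1 library gave −0.37 to 0.0024 for *Tmem119*, −0.25 to 0.013 for *P2ry12*, −0.018 to 0.95 for *Ncam2* and −0.16 to 0.52 for *Ptn*, and medians of −0.29 to 0.011 (homeostatic), −0.20 to 0.011 (DAM/MGnD), −0.0061 to 0.33 (protrusion), −0.014 to 0.37 (glucocorticoid), −0.25 to 0.057 (microglia markers), −0.21 to 0.68 (oligodendrocyte), −0.44 to 0.10 (NK and T cell) and −0.25 to 0.68 (choroid plexus).

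Genes at a few TPM rest on few reads, so differences in them were not detectable beyond large folds at this depth.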
